A study of Mus musculus with 6 samples.

Results

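Kit and 6 other genes published as activated by the transcription factor MYB in blood progenitors were followed in splenic natural killer (NK) cells that lack microRNA-15a and microRNA-16-1. The 7 genes are Kit, Myc, Gfi1, Lmo2, Cd34, Sox4 and Ccna1. They were taken by gene symbol from the platform annotation, each matched 1 probe set, and they are 7 of 19938 genes measured. Their expression was profiled on 6 microarrays, 3 of mice of the genotype labelled 15a/16-1FKO (called knockout below) and 3 of mice labelled Ctrl (control). All mice were 8 to 12 weeks old and of the C57Bl/6 strain. From both genotypes, cells positive for YFP, CD27 and NK1.1 and negative for CD3 were sorted straight after the spleens were taken, with no treatment. The sources used here do not give what drives the deletion or the YFP reporter, nor whether animals were pooled. The submitters call the 3 arrays of a genotype technical replicates, and nothing in the labels ties them to separate animals, so that p-values measure only the spread between these arrays.

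MYB is a DNA-binding activator that keeps blood progenitors dividing and immature, and it falls as lymphoid and myeloid cells mature. MicroRNAs of the 15/16 family bind MYB messenger RNA through their seed, the bases at their 5′ end that pair with a target, and lower it. The study's title names this repression in the maturation of NK cells. The genes described here stand one step further down: they encode a growth factor receptor, a surface marker of progenitors, 4 nuclear regulators of stem cells and lymphocytes, and a cyclin.

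The main mature microRNAs encoded at the deleted locus are shown because both carry the same seed, in capitals (bases 2 to 8). RefSeq lists the second sequence, letter for letter, also for Mir16-2 on chromosome 3, which the genotype label does not name, and mature microRNAs were not measured here. Both sequences come from RefSeq (GRCm38.p6), and the copies at the deleted locus lie on the minus strand, at chr14:61632075-61632096 for the first and chr14:61631936-61631957 for the second.
mmu-miR-15a-5p: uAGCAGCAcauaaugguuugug
mmu-miR-16-5p: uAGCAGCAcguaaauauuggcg

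The knockout label was checked on 1 probe set. The probe set of Mir15a, the gene of the first microRNA, lay between 3.43 and 4.37 on the log2 scale in knockout and between 6.02 and 7.14 in control arrays (limma adjusted p = 0.0296). All 12 NK markers examined lay above background, here a mean log2 level above 4.13, the 95% point of 1027 olfactory receptor genes. Transcripts of the CD3 chains, the protein used to gate T cells out, were also above background, with mean log2 levels over the 6 arrays of 7.33 for Cd3d, 6.84 for Cd3g and 6.34 for Cd3e. The summed linear level of 8 T cell markers, of which 5 lay below background, was 347 to 502 in knockout and 402 to 433 in control arrays, and its part in the results was not tested. Sex-linked transcripts set a pair of control arrays apart. Xist was at 3.89 in control replicate 2 and between 7.56 and 9.65 in the other arrays. The Y-linked gene Eif2s3y was at 2.33 in control replicate 1 and between 6.18 and 7.95 in the others. Knockout replicates 1 to 3 and control replicate 3 held both transcripts at once. Their Xist lay between 7.56 and 8.86 and their Eif2s3y between 6.2 and 7.9. The knockout arrays also differed among themselves, with Y-linked Kdm5d at 7.01, 6.04 and 5.04 in replicates 1 to 3. Whether an array holds RNA of both sexes was not tested. The values of control replicates 1 and 2 go against the control arrays being repeats of a single RNA sample. The SDs and p-values here may thus hold differences between animals, which the labels do not identify. Values without control replicates 1 and 2 are therefore given below where they bear on a result.

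Of the 7 genes, Kit alone separated the genotypes. Kit encodes the receptor tyrosine kinase for stem cell factor and is carried by blood progenitors, mast cells and immature NK cells. Its log2 level was 7.73, 7.78 and 7.56 in knockout replicates 1, 2 and 3 and 6.73, 7.27 and 6.99 in the control replicates. Every knockout array lay above every control array, with a gap of 0.29 between the lowest knockout and the highest control value. The means were 7.69 ± 0.12 in knockout and 6.997 ± 0.27 in control cells (SD, n = 3 arrays each). This is a log2 difference of 0.69 (SE 0.17, 95% interval 0.32 to 1.06), or a 1.62-fold higher level (1.248 to 2.09). In bulk samples, a larger share of cells that carry Kit and more Kit RNA per cell cannot be told apart.

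The difference of Kit did not pass the threshold across all genes. Its adjusted p was 0.999 (limma with Benjamini-Hochberg adjustment over 19938 genes) and its unadjusted limma p was 0.00213. In the exact two-sided permutation test p was 0.1, which no design of 3 against 3 arrays can go below. Among all genes, 27 had a smaller limma p than Kit. Among the 10892 genes above background, 31 had a larger positive difference. Of the 7 members, 0 passed the adjusted threshold of 0.05 in limma, as did 0.0201% of all genes (4 genes). An unadjusted limma p under 0.05 was reached by 1 member, Kit, and by 3.47% of all genes, with 1.55% of all genes on the higher side. Arrays did not overlap for 1 of 7 members, again Kit, while 3.68% of all genes were higher and 4.65% lower without overlap.

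The arrays that stood apart moved the value of Kit more than the others did, in opposite directions. Control replicate 2, with the lowest Xist, had the highest Kit level of the controls, and control replicate 1, with the lowest Eif2s3y, the lowest. Without control replicate 2 the log2 difference was 0.83, and without control replicate 1 it was 0.56. With both left out it was 0.70, but control replicate 3 was then the only control array. With a covariate for sex-linked transcripts and all arrays kept, the difference was also 0.70 (SE 0.14). In the fits with control replicate 1 or 2 left out singly and with the covariate, the adjusted p by limma was at least 0.991.

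**Figure D1:**
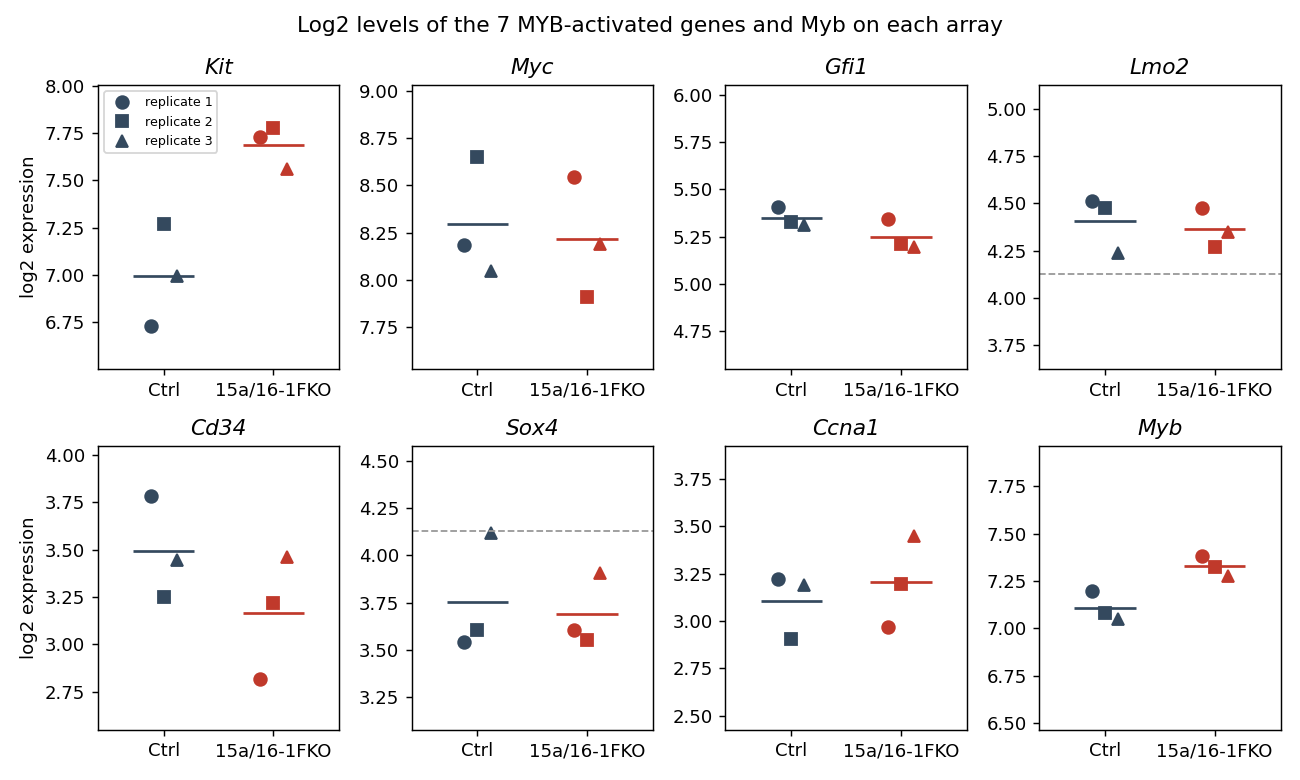
Log2 expression of Kit, Myc, Gfi1, Lmo2, Cd34, Sox4, Ccna1 and Myb on each array, control at left and knockout at right of each panel, with marker shapes for replicate numbers and horizontal lines for means. Every panel spans the same log2 range, and the dashed line marks the olfactory receptor level of 4.13 where it falls inside a panel. Only Kit and Myb have all knockout points above all control points.

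Mast cells and innate lymphoid cells other than NK cells can also carry Kit. Of 11 mast cell and basophil markers, 10 lay below the olfactory receptor level, among them the protease Cpa3 at 2.69 in knockout and 2.67 in control cells. The IgE receptor subunit Ms4a2 was at 2.70 and 2.72. Over all 11 markers, 7 differences were positive and 4 negative, with a median of 0.05. The summed linear level of the 11 markers ranged from 99.1 to 108 in knockout and from 97.8 to 107 in control arrays, so that the groups overlapped. The exception above background was Gata2, at 4.48 and 4.54, which is also a progenitor gene. Hdc, the histamine-forming enzyme, was higher in all knockout arrays, at 3.65 against 3.45, with both means below background. All 5 measured markers of group 3 innate lymphoid cells, such as Il23r, Il17a and Ncam1, lay below background, their median difference was -0.10 and their summed level was 57.5 to 60.5 in knockout and 57.3 to 67.4 in control arrays. Of 3 measured markers of group 2 cells, Il13 was at 4.93 and 4.99 and Il5, below background, at 2.83 and 2.98. The median difference of the 3 was -0.11 and 0 were positive, with a summed level of 54.3 to 56.5 in knockout and 54.0 to 63.2 in control arrays. Il13, the brightest of the 3, was the largest part of this sum.

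Cd34 encodes a sialomucin on the surface of stem and progenitor cells and of endothelium. Its log2 level was 2.81, 3.22 and 3.46 in knockout and 3.78, 3.25 and 3.45 in control replicates 1 to 3, all below background. The lowest array was a knockout and the highest a control, and the other four lay close together across genotypes. The log2 difference was -0.33 (SE 0.20, 95% interval -0.78 to 0.13), opposite in sign to that of Kit. Without knockout replicate 1 it was -0.15 and without control replicate 1 it was -0.18.

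Endothelial cells, which also carry Cd34, are present in spleen. Of 9 endothelial markers, 7 lay below background, and their summed level was 138 to 174 in knockout and 149 to 179 in control arrays. Egfl7, a secreted endothelial protein, stood at 4.15 ± 0.37 in knockout and 4.68 ± 0.23 in control cells without overlap (SD, n = 3 arrays each). Emcn, an endothelial sialomucin, also lay lower in each knockout than in each control array, with means of 2.27 and 2.51, both below background. Over the whole list of 9, 2 differences were positive and 7 negative, with a median of only -0.03. Pecam1, which leukocytes also carry, was at 6.31 and 6.35, the brightest of the 9 and the largest part of their summed level. The part of these cells in the Cd34 value was not tested.

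Myc encodes the transcription factor that drives growth and biosynthesis in dividing lymphocytes. It was measured well above background, at 8.54, 7.91 and 8.19 in knockout and 8.19, 8.65 and 8.05 in control replicates 1 to 3. Each genotype held a high array, knockout replicate 1 and control replicate 2, and the ranges overlapped. The log2 difference was -0.08 (SE 0.21, 95% interval -0.55 to 0.39), which allows a level between 0.684 and 1.31 times that of control. The pooled SD within genotypes, 0.32, was above that of 84.0% of all genes, whose median was 0.20. The sign turned without knockout replicate 2 (0.07) and without control replicate 2 (0.10).

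Gfi1, a zinc finger repressor that restrains stem cell division and shapes lymphoid and myeloid fate, varied least of the 7. Its log2 level was 5.35, 5.21 and 5.19 in knockout and 5.41, 5.33 and 5.31 in control replicates 1 to 3. All values lay within 0.21 of each other, and knockout replicate 1 lay above control replicates 2 and 3. The log2 difference was -0.10 (SE 0.13, 95% interval -0.39 to 0.19). The interval allows a knockout level of at most 1.14 times control and does not reach the 1.62-fold estimate of Kit. The difference between the genes was not tested.

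Lmo2 encodes a LIM-domain adaptor that bridges TAL1 and GATA proteins in stem cells. It lay just above background, at 4.48, 4.27 and 4.35 in knockout and 4.51, 4.47 and 4.24 in control replicates 1 to 3. The genotypes overlapped, with a log2 difference of -0.04 (SE 0.14, 95% interval -0.36 to 0.27). The sign turned without control replicate 1 (0.0079) and without knockout replicate 2 (0.0034).

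Sox4, an HMG-box factor needed for early B cell development and present in many progenitors, lay below background. Its log2 level was 3.61, 3.55 and 3.90 in knockout and 3.54, 3.60 and 4.12 in control replicates 1 to 3. Replicate 3 was the highest of both genotypes. The log2 difference was -0.07 (SE 0.19, 95% interval -0.48 to 0.35), and it was 0.12 without control replicate 3 and 0.0016 without knockout replicate 2.

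Ccna1, the cyclin A of germ cells and of some myeloid progenitors, also lay below background. It was at 2.97, 3.20 and 3.45 in knockout and 3.22, 2.90 and 3.19 in control replicates 1 to 3, with overlapping genotypes. The log2 difference was 0.10 (SE 0.17, 95% interval -0.27 to 0.47), and it was -0.02 without knockout replicate 3.

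**Figure D2:**
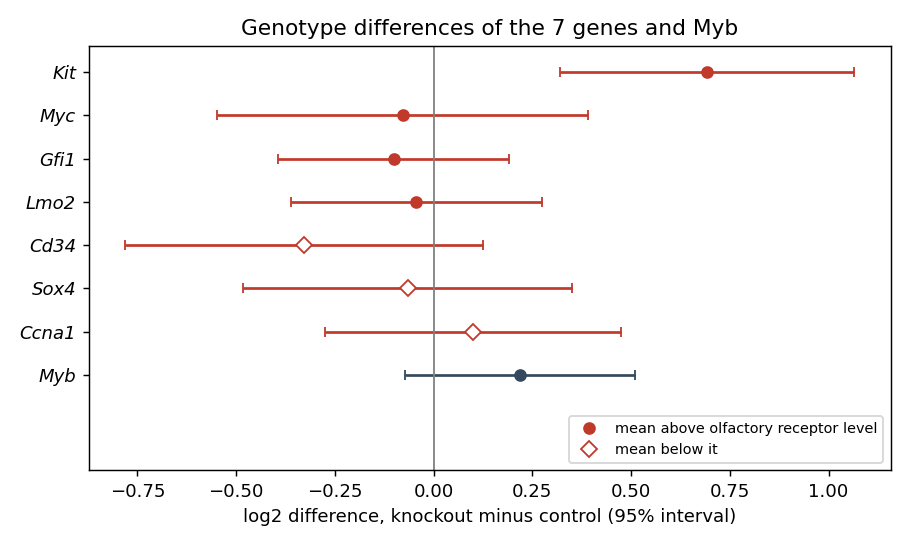
Log2 differences, knockout minus control, with 95% intervals from limma, for the 7 genes (red) and Myb (dark). Filled markers have a mean above the olfactory receptor level and open diamonds a mean below it. The interval of Kit, 0.32 to 1.06, is the only one that does not hold 0.

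The signs of the 7 differences were mixed. A positive difference was found for 2 of 7, Kit and Ccna1, and a negative one for 5. The median was -0.07 beside -0.01 over all 19938 genes. Apart from Kit the sizes lay between 0.04 and 0.33. Of these 6, 3 (Cd34, Sox4 and Ccna1) were measured below background, where a change would show poorly.

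Myb itself, the activator shared by the 7, was at 7.38, 7.32 and 7.28 in knockout and 7.20, 7.08 and 7.05 in control replicates 1 to 3. The genotypes did not overlap, and the log2 difference was 0.22 (SE 0.13, limma adjusted p = 0.999). The difference of Kit was numerically larger than that of Myb, but the genes were not tested against each other. Levels of different probe sets cannot be set against each other.

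**Figure D3:**
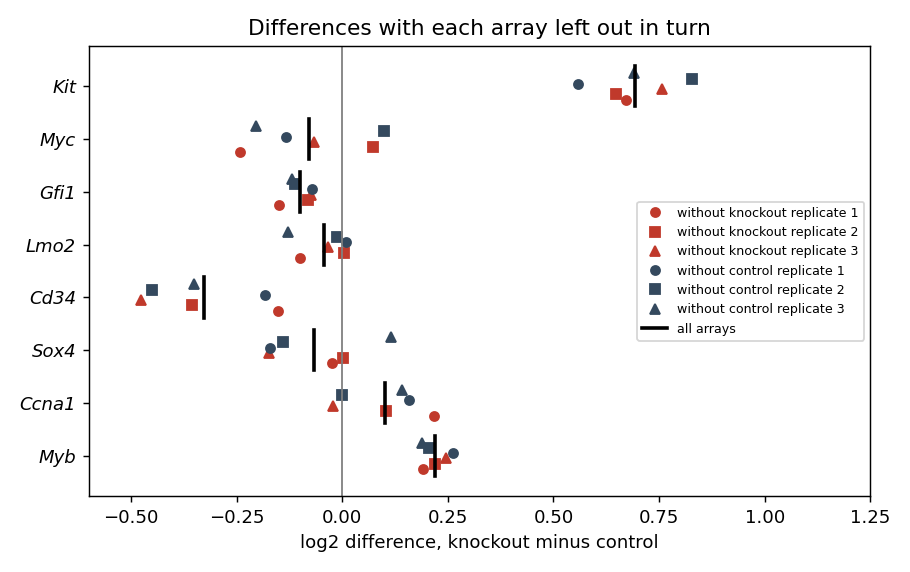
Log2 differences, knockout minus control, of the 7 genes and Myb with each array left out in turn. Black bars are the values with all 6 arrays, red markers leave out a knockout array and dark markers a control array. Kit stays between 0.56 and 0.83 and Myb between 0.19 and 0.26, while Myc, Lmo2, Sox4 and Ccna1 fall on both sides of 0.

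Promoter sequences were examined for what the members share beside their published link to MYB. RefSeq (GRCm38.p6) gave windows of 300 bases, from 250 before to 50 after a gene's start, for 5 of the 7 members (Kit, Gfi1, Cd34, Sox4 and Ccna1), with 7 windows in all. The MYB recognition motif was searched on both strands as CAACTG or CAACGG or TAACTG or TAACGG, and then by its shorter core AACNG, which is contained in all of these. The longer motif was found in 0 of the 7 member windows and in 28.3% of all 32851 windows. The core was found in 5 of the 7 and in 80.3% of all windows. Kit, the gene that separated the genotypes, had no core in either of its 2 windows, like 19.7% of all windows. These 2 windows, chr5:75574737-75575036 and chr5:75574741-75575040, overlap almost fully and are not separate observations. By gene, Kit alone of the 5 had no core. Ccna1 had 3 cores and Cd34 had 2, while the Gfi1 windows held 4 and 1. A match is not a binding site, and its absence says only that these letters are not in this window. The 250 bases before the start are shown for Kit (chr5:75574737-75574986, plus strand) and, as the member with most cores in this stretch, for Ccna1 (chr3:55055056-55055305, minus strand). Capitals mark AACNG or its reverse complement CNGTT, of which the first sequence has none.
Kit: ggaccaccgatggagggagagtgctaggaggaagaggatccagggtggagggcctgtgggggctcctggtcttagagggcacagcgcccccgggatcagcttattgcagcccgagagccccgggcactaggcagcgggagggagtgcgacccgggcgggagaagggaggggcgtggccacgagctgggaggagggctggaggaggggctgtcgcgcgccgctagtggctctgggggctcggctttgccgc
Ccna1: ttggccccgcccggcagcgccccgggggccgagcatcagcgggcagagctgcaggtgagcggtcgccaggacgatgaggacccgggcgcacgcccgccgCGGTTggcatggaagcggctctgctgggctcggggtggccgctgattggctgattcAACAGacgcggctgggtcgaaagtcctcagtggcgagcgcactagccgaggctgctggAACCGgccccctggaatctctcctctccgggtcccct

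The Kit stretch was 70.8% G and C and the Ccna1 stretch 71.2%, beside a median of 52.4% over all windows. In the gene table the 7 members lie on 6 chromosomes, with Kit and Gfi1 on the same one, and none lies on chromosome 14, which carries the deleted locus.

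The genes around the members were examined in 10 lists holding 125 measured genes, described here by counts. In limma 0 of the 125 passed the adjusted threshold. An unadjusted p under 0.05 was reached by 4 on the higher and 0 on the lower side, together 3.2% of the 125 beside 3.47% of all genes. Arrays did not overlap for 5.6% on the higher and 1.6% on the lower side, beside 3.68% and 4.65% of all genes. None of the 125 had a positive difference above that of Kit, while Ccna2 had a negative one of larger size.

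In the signalling pathway of Kit, 13 of 19 measured genes had a positive difference and 6 a negative one, with a median of 0.09. Gab2, a docking protein that passes receptor signals to PI3 kinase, was at 5.84 ± 0.22 in knockout and 5.31 ± 0.46 in control cells (SD, n = 3 arrays each), a log2 difference of 0.53 (SE 0.23). Sh2b3, the adaptor LNK that dampens Kit signals, was higher in all knockout arrays, at 7.20 ± 0.10 against 6.93 ± 0.14. Dok1, an adaptor that recruits inhibitors of RAS, differed by 0.41 (SE 0.24) with overlapping arrays. Kitl, the gene of the ligand, lay below background in both genotypes, at 2.22 and 2.004.

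Of 20 partners and targets of MYC, 14 lay higher and 6 lower in knockout by their means, the median difference being 0.04. Mxi1, which competes with MYC for its partner MAX, was higher in all knockout arrays, by 0.30 (SE 0.14). Zbtb17, through which MYC represses genes, differed by 0.23 (SE 0.15) and Mlx, of the parallel network, by 0.25 (SE 0.18). Tert, the catalytic subunit of telomerase and a MYC target, was lower in all knockout arrays but below background, by -0.15 (SE 0.13).

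Among 15 genes of the LMO2 complex the median difference was 0.01, with 9 above and 6 below 0. Arrays did not overlap for 3 of the 15, each higher in knockout, beside 3.68% of all genes higher without overlap. The list was chosen with earlier results of these data known. Ssbp3, which stabilises LDB1, differed by 0.36 (SE 0.14), the co-repressor Cbfa2t3 by 0.30 (SE 0.13) and Ldb1, the scaffold that LMO2 binds, by 0.32 (SE 0.16). A second probe set of Cbfa2t3 differed by 0.01 (SE 0.19).

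Co-repressors, targets and relatives of GFI1 leaned to higher means in knockout, 9 against 2 of 11 genes, at a median difference of 0.05. Besides Zbtb17, the smallest p-values belonged to the paralog Gfi1b at 0.09 (SE 0.17) and the histone methyltransferase Ehmt2 at 0.07 (SE 0.14). Arrays overlapped for all 11.

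Cyclin A partners and regulators split into 4 with a positive and 5 with a negative difference, at a median of -0.02 over 9 genes. Ccna2, the cyclin A of somatic cells, had the opposite sign to Ccna1 and lay lower in each knockout array than in any control, at 5.78 ± 0.68 against 6.53 ± 0.50 (SD, n = 3 arrays each). Its log2 level was 6.19, 4.99 and 6.17 in knockout and 6.29, 6.21 and 7.10 in control replicates 1 to 3, a narrow separation. Its difference was -0.75 (SE 0.34, 95% interval -1.51 to 0.01), with knockout replicate 2 and control replicate 3 far from the other arrays. Its kinase Cdk1 differed by 0.09 (SE 0.13) and the ubiquitin ligase subunit Skp2 by -0.09 (SE 0.19).

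Paralogs of the 7 genes numbered 15, of which 12 lay below background; 6 differences were positive and 9 negative (median -0.02). The receptors Pdgfra and Pdgfrb, of the same kinase class as Kit, differed by -0.35 (SE 0.20) and -0.20 (SE 0.15), both below background.

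The MYB family and its co-factors, 11 genes, gave 6 positive and 5 negative differences (median 0.14). Mybl1, the family member of germ cells and germinal centres, was higher in all knockout arrays by 0.48 (SE 0.18), but below background at 2.93 and 2.45. Mybl2, which serves dividing cells, differed by -0.27 (SE 0.19).

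Other genes published as activated by MYB, in at least 1 cell type, numbered 11, with 5 differences above and 6 below 0 (median -0.05), and arrays overlapped for all 11. The survival gene Bcl2 differed by 0.14 (SE 0.15). The granule protease Prtn3 differed by -0.20 (SE 0.23), below background, and Ada, adenosine deaminase, by -0.15 (SE 0.19). The cell cycle kinase Cdk6 differed by 0.12 (SE 0.19) and the chemokine receptor Cxcr4 by 0.13 (SE 0.25).

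Markers of stem and progenitor cells lay mostly lower by their means in knockout: 13 of 15 differences were negative and 2 positive. Their median was -0.12, beside -0.01 over all genes. This list, too, was chosen with earlier results of these data known. Of the 15, 12 lay below background, arrays overlapped for all 15, and 0 reached an unadjusted limma p under 0.05. Flt3, the other cytokine receptor kinase of early progenitors, was at 3.23 in knockout and 3.46 in control cells. Slamf1, a stem cell marker, was at 2.45 and 2.63 and Mycn, a relative of Myc, at 2.88 and 3.08.

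Genes of NK and innate lymphoid precursors were all 14 above background, with 6 positive and 8 negative differences (median -0.04). The interleukin-7 receptor Il7r, carried with Kit by immature NK cells, was at 8.40 ± 0.08 in knockout and 8.07 ± 0.47 in control cells (SD, n = 3 arrays each), a log2 difference of 0.33 (SE 0.22). Zbtb16 (PLZF), a factor of innate lymphoid precursors, differed by -0.25 (SE 0.16) and Bcl11b by -0.19 (SE 0.15). Arrays of the genotypes overlapped for all 14.

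**Figure D4:**
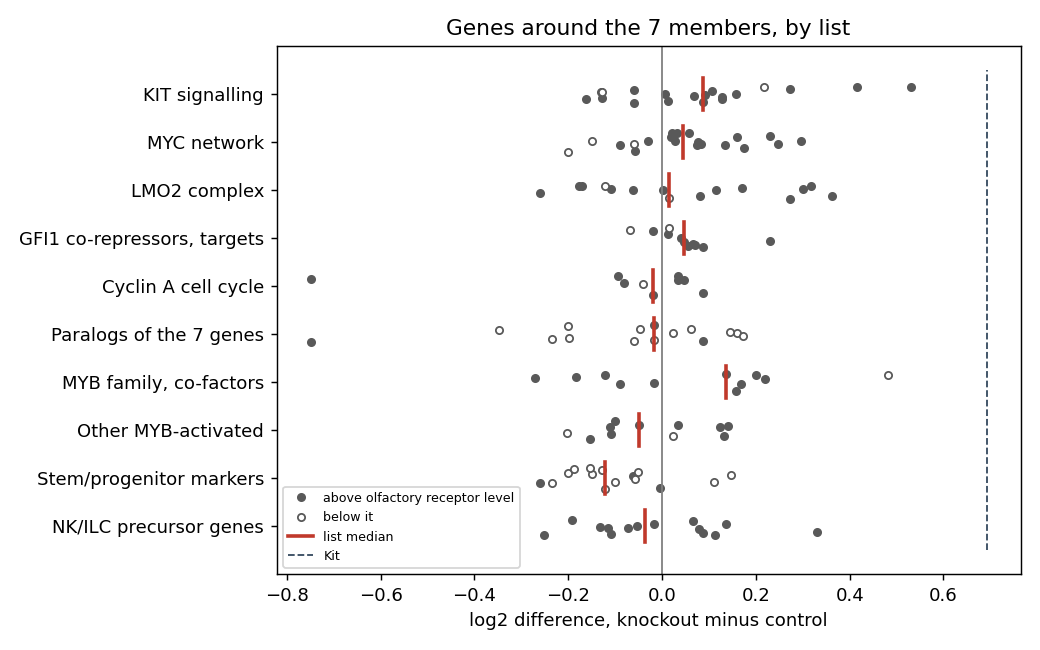
Log2 differences, knockout minus control, of each measured gene in 10 lists around the members. Filled points have a mean above the olfactory receptor level and open points a mean below it, red bars are list medians and the dashed line is Kit. The list medians lie between -0.12 and 0.14, and no gene reaches the line of Kit at 0.69, while Ccna2 lies at -0.75.

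The genes whose values were most like those of Kit were found by the root mean square difference over the 6 arrays, each gene centred on its own mean, among 10408 named genes above background. They were Zfp592 (0.103), Gclm (0.106), Coq10a (0.108), Elac1 (0.112) and Vwa5a (0.117), beside a median of 0.422 over all genes compared. Zfp592 encodes a zinc finger protein, Gclm the regulatory subunit of the enzyme that starts glutathione synthesis, Coq10a a coenzyme Q binding protein and Elac1 a tRNA-processing nuclease. Their log2 differences were 0.55 (SE 0.18), 0.61 (SE 0.18), 0.60 (SE 0.14), 0.58 (SE 0.17) and 0.50 (SE 0.19), in the same order. As for Kit, control replicate 2 had the highest of the control values for all 5, which their choice by likeness to Kit favours. Because Kit differs between genotypes, genes like it do so too, and likeness adds no support to its difference. A second probe set of Coq10a differed by -0.08 (SE 0.29).

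**Figure D5:**
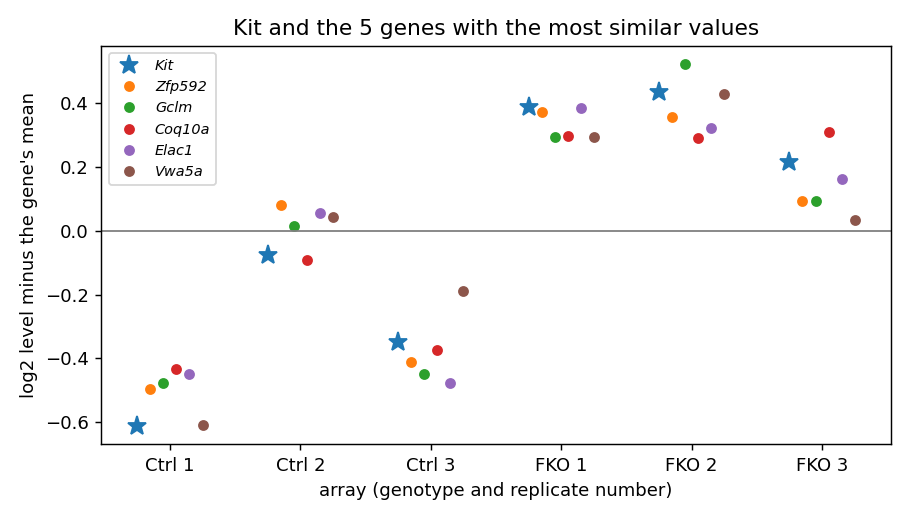
Log2 level of Kit (star) and of the 5 genes most like it, each minus its own mean over the 6 arrays, by genotype and replicate number. Control replicate 2 is the highest control array for Kit and for all 5 genes, and for Vwa5a its log2 level of 5.074 before centring lies above the lowest knockout array at 5.065.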

How the data were processed

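Each of the 6 RNA samples was read on its own Affymetrix mouse gene array. The authors deposited log2 values for 35556 probe sets. RMA and Partek 6.6 are named in the submitters' processing notes, and the sources used here do not give a genome build. Deposited values lay between 0.74 and 13.6, and array medians between 4.23 and 4.33. The number of arrays limits the precision, as microarrays carry no depth. Probe sets with 1 gene symbol in GEO's platform annotation (21789) were used, the brightest per gene, which gave 19938 genes. Genotypes were compared across all genes with limma 3.58.1 in R 4.3.3 (lmFit, eBayes, two-sided, genotype as the only term), with Benjamini-Hochberg adjustment, a threshold of 0.05 and no filter. The fit was tested on simulated data. The members and gene lists were chosen with earlier results of these data known. Genes named beside the members were the 3 with the smallest p in each list around the members, the brightest and the smallest-p marker of each cell type, and the 5 most like Kit. Others (Kitl, Tert, Cdk6, Cxcr4, Cpa3, Ms4a2, Il23r, Cd3e, Cd3g, Emcn, Ly6g, Lyz2 and the sex-linked genes) were chosen after their values were seen. Alternatives covered normalization, dim genes, the variance prior, array weights, probe set choice, the replicate number as a block and each array left out.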

Additional observations from a re-analysis of the deposited data

How the results depend on the processing

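Of the 7 members, 0 passed in any of the 18 alternatives tried (limma). Kit stayed positive in all 18 (0.56 to 0.83 with an array left out, 0.66 to 0.70 otherwise). Where more than 1 control array was kept, its unadjusted limma p lay between 0.000849 and 0.00941 and its adjusted p was at least 0.991. Gfi1 and Cd34 stayed negative in every alternative that held them, and Myb positive. With an array left out, differences ranged from -0.24 to 0.10 for Myc, from -0.13 to 0.0079 for Lmo2, from -0.17 to 0.12 for Sox4 and from -0.021 to 0.22 for Ccna1. With control replicates 1 and 2 both left out, an alternative added after seeing the data, control replicate 3 was the only control array. Myc then differed by 0.17, Lmo2 by 0.12 and Sox4 by -0.43. Sox4, Cd34 and Ccna1 were not in the fits without dim genes.

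Across all genes 4 passed. The count was 2 to 3 with an array left out and 2 with the covariate for sex-linked transcripts (also added later). It was 0 when all 35556 probe sets were tested (1214 at an unadjusted limma p under 0.05). These fits hold fewer arrays, 1 more term or more tests, and the cause was not tested further. With the replicate number as a block 3 genes passed and the difference of Kit was again 0.69 (SE 0.16); no member's call changed. Deviations of same-numbered arrays correlated with r = 0.05, 0.15 and 0.14, and every array correlated best with its own number, a hint from the data but not from the design. Members below background are limited by signal: a change there may not show.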

Other observations

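Markers of other cells in the spleen are given here for the sort as a whole. Of 73 measured markers in 10 lists, NK cells included, 0 passed the adjusted threshold in limma, beside 0.0201% of all genes. An unadjusted limma p under 0.05 was reached by 1 higher and 2 lower, together 4.11% of the 73 beside 3.47% of all genes. Arrays did not overlap for 1.37% of the 73 on the higher and 5.48% on the lower side, beside 3.68% and 4.65% of all genes. NK markers had a median difference of 0.05, with Nkg7, a granule protein, at 11.8 and 11.7 and the T-box factor Eomes at 9.98 and 9.78 in knockout and control cells. The T cell list had a median of 0.04. Cd3d was at 7.41 and 7.25, and Cd8a, below background, at 3.43 and 3.60. The B cell list had a median of 0.02, with Cd22 at 5.07 and 4.93 and the B cell factor Ebf1, below background, lower in all knockout arrays at 2.47 against 2.66. The myeloid list had a median of 0.02. S100a8, a neutrophil calcium-binding protein, was at 7.84 ± 0.42 in knockout and 7.07 ± 0.68 in control cells (SD, n = 3 arrays each), with overlapping arrays. Its difference, 0.77 (SE 0.32), was the only positive one of the 73 above that of Kit. Of the 9 myeloid markers, 5 differences were positive and 4 negative. The neutrophil marker Ly6g, below background, was at 2.47 and 2.48, and Lyz2 differed by -0.12 (SE 0.27). Itgax, which NK cells also express, was at 9.27 and 9.07. The erythroid list had a median of -0.10, with Tfrc at 4.53 and 4.57 and Rhag, below background, at 2.03 and 2.21. The platelet list had a median of -0.03, with Gp9 at 4.62 and 4.48 and Gp5, below background, lower in all knockout arrays at 3.37 against 3.73. The part of such cells in the difference of Kit was not tested.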
